A study of Mus musculus with 18 samples.

Results

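The genes described here were 10 genes of the NRF2 antioxidant response, of 52636 genes in the deposited count table: *Nfe2l2*, *Keap1*, *Gclc*, *Gclm*, *Gsr*, *Srxn1*, *Txnrd1*, *Nqo1*, *Hmox1* and *Osgin1*. They were chosen by symbol, with their normalized level, as counts per 1000000 counts (CPM), in the 6 groups already known, so their levels and differences are a description and are given without *P*-values. All 10 were counted in every library and passed the filter on low counts in every comparison. The libraries were RNA-seq of retinal pigment epithelium (RPE), the pigmented cell layer behind the photoreceptors, from C57BL/6 mice at postnatal day 14, with 3 libraries per group. Each library held both eyes of 1 mouse, so the libraries of a group were separate animals. Mice of 5 groups had received AAV8 vectors under the retina as newborns, with the *Best1* promoter restricting expression to the RPE. The vectors carried GFP, the nuclear active form of SREBP2 (nSREBP2), a control hairpin named for LacZ (ctrl sh), or one of a pair of hairpins against *Lrp2* (*Lrp2* sh1 and *Lrp2* sh2), and the hairpin vectors carried mCherry in place of GFP. Mice of the sixth group were uninjected. The study asked which genes nSREBP2 and loss of *Lrp2*, the endocytic receptor megalin, alter in the RPE.

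NRF2, encoded by *Nfe2l2*, is a transcription factor that KEAP1 holds at a low level by directing it to the ubiquitin ligase CUL3 and the proteasome. Oxidants and electrophiles modify cysteines of KEAP1, NRF2 then escapes breakdown, and with a small MAF protein it binds antioxidant response elements near genes for glutathione synthesis, thioredoxin recycling, quinone reduction and NADPH supply. The RPE lives with strong light, high oxygen and a daily load of oxidized lipid from photoreceptor outer segments, and NRF2 is among its main known defenses.

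Depth was 8921885 to 13696934 counts per library, and 3 counts corresponded to 0.216 to 0.327 CPM. *Lrp2* was at 29.9 to 42.8 CPM with *Lrp2* sh1 and at 34.6 to 43.6 CPM with *Lrp2* sh2, against 87.6 to 165.8 CPM with ctrl sh, and *Srebf2* was at 207.7 to 232.9 CPM with nSREBP2 against 82.9 to 112.4 CPM with GFP. The summed level of 12 RPE markers was 2746 to 8032 CPM in uninjected libraries, 587 to 752 with GFP, 434 to 650 with nSREBP2, 1984 to 4058 with ctrl sh, 1605 to 2469 with *Lrp2* sh1 and 729 to 1188 with *Lrp2* sh2. No RPE marker was at 0 in all libraries of a group, but *Rpe65*, the retinoid isomerase that defines the RPE, was at 376.3 to 1127 CPM in uninjected libraries and at 1.06 to 3.72 CPM in every GFP and nSREBP2 library. With ctrl sh it was at 96.99, 2.58 and 1.78 CPM, so that replicate 1 stood apart, with *Lrp2* sh1 at 3.57 to 44.0 CPM and with *Lrp2* sh2 at 3.49 to 15.6 CPM. *Lrat*, another of the 12 RPE markers, was at 249.8 to 876.5 CPM in uninjected libraries, 20.25 to 28.1 with GFP and 8.93 to 9.30 with nSREBP2. In the hairpin groups *Lrat* was at 92.9 to 310.5 CPM with ctrl sh, 65.9 to 148.6 with *Lrp2* sh1 and 5.63 to 8.98 with *Lrp2* sh2. Genes of other cells were present throughout, since 6 fibroblast markers summed to between 18480 and 85260 CPM and 12 macrophage markers to between 391.6 and 798 CPM. In such bulk samples, fewer cells of a type and less RNA per cell cannot be told apart. Counts on the Y chromosome marked all nSREBP2 libraries as male and all GFP libraries as female, so sex and treatment cannot be told apart within that comparison. Uninjected replicate 3 and *Lrp2* sh2 replicates 2 and 3 were also male, and the rest female.

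Sequence near the start sites was examined because NRF2 acts through a short element, TGACNNNGC. RefSeq promoter windows of build GRCm38.p6, from 250 bases before to 50 bases after a start site, were held for 7 of the 10 genes, in 9 windows, and not for *Hmox1*, *Gclc* and *Gsr*. The element, searched on both strands, was found in 4 of these windows, belonging to 4 genes, and in 12.4% of all 32851 windows. These are the matches, in capitals, with 10 bases on each side and written 5′ to 3′ on the strand of the element, which was the minus strand in each case. They are printed to show the sequence around each match, in which TGAC and GC are fixed by the search.
*Nfe2l2*, chr2:75704885-75704913: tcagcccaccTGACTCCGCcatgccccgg
*Srxn1*, chr2:152105542-152105570: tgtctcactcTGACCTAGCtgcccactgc
*Gclm*, chr3:122245413-122245441: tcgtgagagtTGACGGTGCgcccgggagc
*Txnrd1*, chr10:82859104-82859132: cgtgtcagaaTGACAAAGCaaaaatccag

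The match lay 232 bases before the start site of *Nfe2l2*, 126 bases before that of *Gclm*, 84 bases before 1 of the 3 start sites of *Txnrd1* and 29 bases after that of *Srxn1*. The windows of *Nqo1*, *Osgin1* and *Keap1* held no match, which says only that these letters are not in those windows. Neither an E-box, CACGTG, found in 7.15% of all windows, nor TCACNCCAC, a form of the sterol regulatory element found in 1.24%, was in the 9 windows held for 7 of the genes. The 250 bases upstream of *Gclm* and *Nqo1* are given whole, since these genes differed between the hairpins by more than most members and the first holds the element, in capitals on the opposite strand, while the second does not.
*Gclm*, chr3:122245307-122245556, plus strand: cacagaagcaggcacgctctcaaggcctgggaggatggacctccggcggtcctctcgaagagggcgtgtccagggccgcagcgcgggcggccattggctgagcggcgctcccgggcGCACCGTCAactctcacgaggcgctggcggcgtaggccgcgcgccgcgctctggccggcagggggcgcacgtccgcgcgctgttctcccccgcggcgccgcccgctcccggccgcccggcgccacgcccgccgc
*Nqo1*, chr8:107403206-107403455, minus strand: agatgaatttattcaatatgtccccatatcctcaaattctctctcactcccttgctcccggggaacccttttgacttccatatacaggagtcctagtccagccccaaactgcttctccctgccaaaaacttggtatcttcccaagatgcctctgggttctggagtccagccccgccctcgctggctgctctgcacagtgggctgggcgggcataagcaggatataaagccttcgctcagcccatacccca

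Across the 6 groups, the mean level was highest with *Lrp2* sh1 for 8 of the 10 genes, and for 7 of these all 3 *Lrp2* sh1 libraries lay above the other 15 libraries, as they did for 3.88% of all genes that passed the filter over the 18 libraries. The exceptions were *Gclc*, highest with GFP, and *Hmox1*, highest with nSREBP2. The lowest mean was in uninjected libraries for 5 genes and with *Lrp2* sh2 for 3. The range of group means was widest for *Nqo1*, at 6.45-fold from lowest to highest, and for *Srxn1*, at 4.55-fold, and narrowest for *Nfe2l2* itself, at 1.25-fold. Per kilobase of exon, the uninjected level ran from 2.91 CPM per kb for *Osgin1* to 26.7 CPM per kb for *Nfe2l2*, and *Nqo1*, at 25.2 CPM per kb, lay close to the latter.

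**Figure D1:**
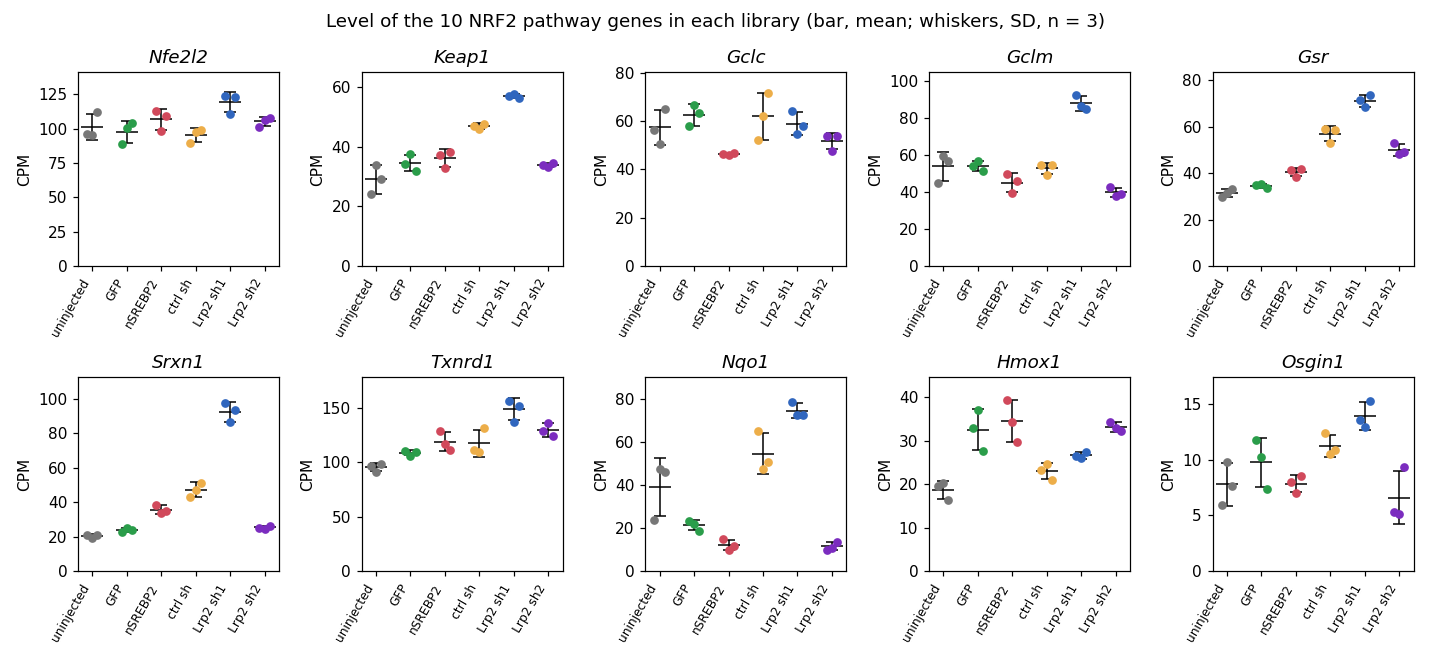
Level of each of the 10 genes in CPM (vertical axes, from 0) in the 18 libraries, grouped along the horizontal axes. Points are libraries, bars are means and whiskers are SD (n = 3). The *Lrp2* sh1 points are the highest in 7 of the panels, and *Nqo1* reaches 78.6 CPM with *Lrp2* sh1 but at most 13.7 CPM with *Lrp2* sh2.

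The pair of regulators came first. *Nfe2l2* (GRCm38 chr2:75675513-75704641, minus strand) was at 96.4, 95.3 and 112.5 CPM in the uninjected libraries, 88.9, 100.6 and 104.1 CPM with GFP, and 112.9, 98.6 and 109.1 CPM with nSREBP2. With the hairpins it was at 89.3, 97.6 and 99.3 CPM for ctrl sh, 124.0, 111.0 and 123.3 CPM for *Lrp2* sh1, and 101.4, 106.3 and 108.0 CPM for *Lrp2* sh2. Every pair of neighbouring groups in the order of means overlapped, although all *Lrp2* sh1 libraries lay above all ctrl sh libraries. Its log2 fold change (log2FC) was 0.32 ± 0.07 (SE) for *Lrp2* sh1 versus ctrl sh and 0.16 ± 0.07 for *Lrp2* sh2 versus ctrl sh.

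*Keap1* (chr9:21229730-21239361, minus strand), the inhibitor of NRF2, was at 24.4 to 33.9 CPM in uninjected libraries, 32.1 to 37.5 with GFP and 33.0 to 38.4 with nSREBP2, and these ranges overlapped. It was at 47.1, 45.9 and 47.8 CPM with ctrl sh, 57.0, 57.6 and 56.3 CPM with *Lrp2* sh1, and 34.0, 33.4 and 34.5 CPM with *Lrp2* sh2. The hairpin groups were therefore fully separate, with *Lrp2* sh1 above ctrl sh (log2FC 0.27 ± 0.06) and *Lrp2* sh2 below it (log2FC −0.45 ± 0.06). Of its exon bases, 510 are shared with *Gm16754* on the opposite strand, and the use of strand in counting is not given in the sources used here, so its count is uncertain to that extent.

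Among the glutathione genes, *Gclc* and *Gclm* encode the catalytic and modifier subunits of glutamate-cysteine ligase, the rate-limiting enzyme of glutathione synthesis, and they differed from each other. *Gclm* (chr3:122245557-122270732, plus strand) was at 45.0, 59.4 and 56.8 CPM in uninjected libraries, 53.7, 56.9 and 51.3 CPM with GFP, and 49.7, 39.4 and 46.0 CPM with nSREBP2. It was at 54.8, 49.3 and 54.4 CPM with ctrl sh, 92.5, 86.5 and 84.8 CPM with *Lrp2* sh1, and 42.7, 37.8 and 38.7 CPM with *Lrp2* sh2. The ctrl sh libraries thus lay between both *Lrp2* hairpins without overlap, within the range of the uninjected ones. The log2FC was 0.73 ± 0.06 for *Lrp2* sh1 and −0.40 ± 0.08 for *Lrp2* sh2 versus ctrl sh, and 540 of its exon bases are shared with *Gm17494* and *Gm6061*.

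*Gclc* (chr9:77754535-77794485, plus strand) showed no such separation. It was at 52.2, 62.0 and 71.8 CPM with ctrl sh, 64.3, 54.8 and 57.9 CPM with *Lrp2* sh1, and 53.7, 47.8 and 53.6 CPM with *Lrp2* sh2. Its lowest level was with nSREBP2, at 46.4, 46.2 and 47.0 CPM against 57.8, 66.8 and 63.3 CPM with GFP, without overlap (log2FC −0.43 ± 0.07).

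*Gsr* (chr8:33652523-33698163, plus strand), the reductase that regenerates glutathione from its oxidized form, was the one gene for which no neighbouring groups overlapped. It was at 29.5 to 33.0 CPM in uninjected libraries, 33.5 to 35.1 with GFP, 38.4 to 42.0 with nSREBP2, 48.2 to 52.9 with *Lrp2* sh2, 53.1 to 59.1 with ctrl sh and 68.3 to 73.6 with *Lrp2* sh1. Every hairpin group was above every other group, and ctrl sh exceeded uninjected by a log2FC of 0.85 ± 0.09.

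In the thioredoxin branch, *Srxn1* (chr2:152105516-152111376, plus strand) encodes sulfiredoxin, which repairs overoxidized peroxiredoxins. It was at 20.8, 19.2 and 21.04 CPM in uninjected libraries, 22.5, 25.0 and 23.9 CPM with GFP, and 38.4, 33.8 and 35.1 CPM with nSREBP2. It was at 43.0, 47.4 and 51.4 CPM with ctrl sh, 97.8, 86.3 and 93.6 CPM with *Lrp2* sh1, and 25.3, 24.7 and 26.4 CPM with *Lrp2* sh2. All groups were separate except *Lrp2* sh2 and GFP, which overlapped. *Srxn1* was higher with nSREBP2 than with GFP (log2FC 0.59 ± 0.09), 1.95-fold higher with *Lrp2* sh1 than with ctrl sh (log2FC 0.97 ± 0.08), 1.84-fold lower with *Lrp2* sh2 than with ctrl sh (log2FC −0.88 ± 0.08), and 2.31-fold higher with ctrl sh than in uninjected libraries (log2FC 1.21 ± 0.10).

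*Txnrd1* (chr10:82833951-82897712, plus strand), the cytosolic thioredoxin reductase, moved over a narrower range. It was at 91.5 to 98.8 CPM in uninjected libraries, 106.0 to 110.7 with GFP, 111.5 to 128.8 with nSREBP2, 109.6 to 131.2 with ctrl sh, 124.1 to 136.0 with *Lrp2* sh2 and 137.2 to 156.4 with *Lrp2* sh1. Unlike *Srxn1* it was not lower with *Lrp2* sh2 than with ctrl sh, where its ranges overlapped (log2FC 0.16 ± 0.08), whereas *Lrp2* sh1 lay above ctrl sh (log2FC 0.34 ± 0.08).

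*Nqo1* (chr8:107388225-107403206, minus strand), a quinone reductase and one of the best known NRF2 targets, differed most. It was at 23.6, 47.6 and 46.2 CPM in uninjected libraries, 23.3, 22.02 and 18.9 CPM with GFP, and 14.9, 10.1 and 11.6 CPM with nSREBP2. It was at 65.3, 47.4 and 51.0 CPM with ctrl sh, 78.6, 72.5 and 72.8 CPM with *Lrp2* sh1, and 10.1, 10.9 and 13.7 CPM with *Lrp2* sh2. The 3 *Lrp2* sh2 libraries overlapped only the nSREBP2 ones, and uninjected replicate 1 stood well below the other two uninjected libraries. *Nqo1* was 4.68-fold lower with *Lrp2* sh2 than with ctrl sh (log2FC −2.22 ± 0.15), 1.76-fold lower with nSREBP2 than with GFP (log2FC −0.81 ± 0.15) and higher with *Lrp2* sh1 than with ctrl sh (log2FC 0.45 ± 0.11). GFP versus uninjected gave a log2FC of −0.88 ± 0.24, which was not called, but was −1.14 and called without uninjected replicate 1.

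The summed RPE markers were at 2746 CPM in uninjected replicate 1, the low one for *Nqo1*, against 7332 and 8032 CPM in the other two. The marker sum was lower with *Lrp2* sh2, nSREBP2 and GFP than with ctrl sh, as was *Nqo1*, but the order of the groups was not the same throughout. The marker sum was 729 to 1188 CPM with *Lrp2* sh2 against 587 to 752 CPM with GFP, ranges that overlapped. *Nqo1* was lower with *Lrp2* sh2 than with GFP. So was *Lrat*, 1 of the 12 markers, at 5.63 to 8.98 CPM with *Lrp2* sh2 against 20.25 to 28.1 CPM with GFP. Uninjected replicates 2 and 3 had the highest marker sums of the 18 libraries, with *Nqo1* at 47.6 and 46.2 CPM, near the lowest ctrl sh library. *Lrp2* sh1 had no more RPE marker RNA than ctrl sh (1605 to 2469 against 1984 to 4058 CPM), and its *Nqo1* level was higher. The 12 markers were also read at an edgeR adjusted *P* under 0.05 over all genes. With *Lrp2* sh2 versus ctrl sh, 7 were called lower and 1 higher, beside 9.48% and 8.59% of all genes tested. With nSREBP2 versus GFP, 5 were called lower and 2 higher, beside 8.47% and 12.6%. With *Lrp2* sh1 versus ctrl sh, 1 was called lower, beside 2.28%, and none higher, beside 3.06%. The median log2FC of the 12 was −0.28 in that last comparison. The part of RPE content in these differences was not tested.

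**Figure D2:**
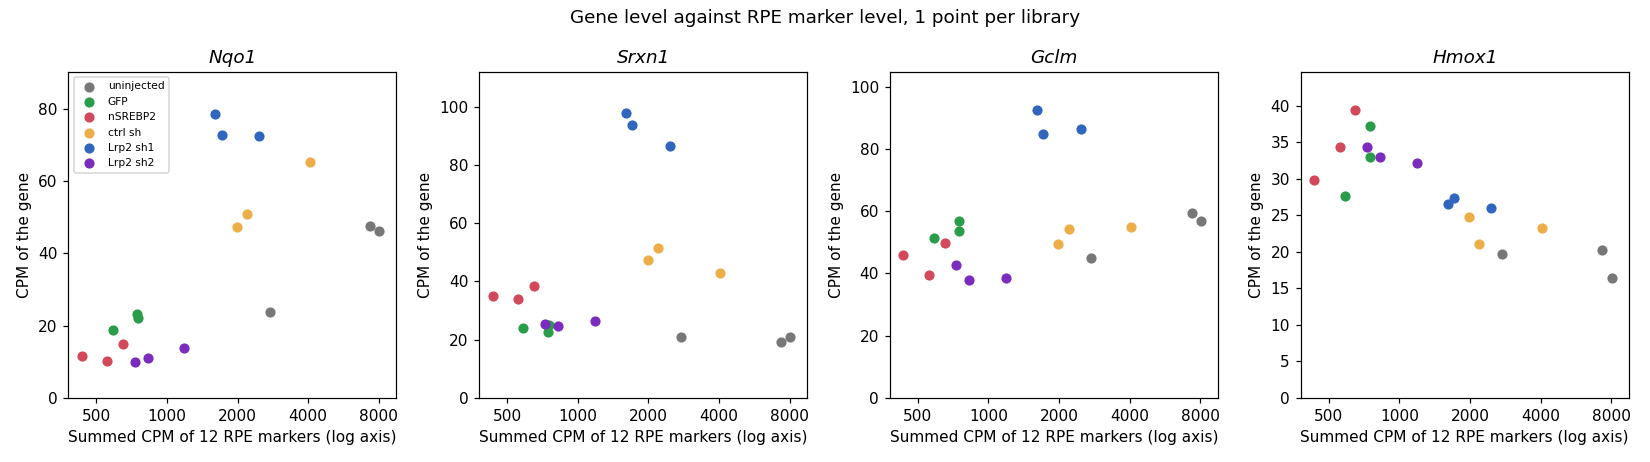
CPM of *Nqo1*, *Srxn1*, *Gclm* and *Hmox1* (vertical axes) against the summed CPM of 12 RPE markers (horizontal log axes), with 1 point per library, colored by group. The *Lrp2* sh1 points, at 1605 to 2469 CPM of RPE markers, stand above all others for *Nqo1*, *Srxn1* and *Gclm*, while *Hmox1* is lowest, at 16.4 to 20.2 CPM, in the uninjected libraries.

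*Hmox1* (chr8:75093621-75100589, plus strand), the heme oxygenase that NRF2 activates and BACH1 represses, had another order of groups than the rest. It was at 19.7, 20.2 and 16.4 CPM in uninjected libraries, 32.9, 37.2 and 27.6 CPM with GFP, and 39.4, 34.4 and 29.8 CPM with nSREBP2. It was at 23.3, 24.7 and 21.05 CPM with ctrl sh, 26.6, 25.9 and 27.4 CPM with *Lrp2* sh1, and 34.3, 33.0 and 32.2 CPM with *Lrp2* sh2. The groups GFP, nSREBP2 and *Lrp2* sh2 overlapped and lay above the other 3 groups, which did not overlap one another. *Hmox1* was higher with *Lrp2* sh2 than with ctrl sh (log2FC 0.54 ± 0.09) and with GFP than in uninjected libraries (log2FC 0.79 ± 0.14). Macrophages also express *Hmox1*, and 12 macrophage markers summed to 499 to 628 CPM with *Lrp2* sh2 against 447 to 473 CPM with ctrl sh. Of the 12, 2 were called higher there, beside 8.59% of all genes tested, and their median log2FC was 0.28. The sum was 430 to 506 CPM with GFP against 514 to 572 CPM in uninjected libraries. There 1 of the 12 was called lower, beside 1.82% of all genes, and the median log2FC was −0.09. With nSREBP2 the macrophage markers summed to 756 to 798 CPM, with 11 of the 12 called higher than with GFP, beside 12.6% of all genes. For *Hmox1* this comparison gave a log2FC of 0.09 ± 0.13, with overlap. The part of macrophages in the result was not tested.

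*Osgin1* (chr8:119434124-119446256, plus strand), an oxidative stress-induced growth inhibitor, had the lowest counts of the 10. It was at 5.94 to 9.77 CPM in uninjected libraries, 7.38 to 11.7 with GFP, 7.02 to 8.54 with nSREBP2, 10.5 to 12.4 with ctrl sh and 12.9 to 15.3 with *Lrp2* sh1. With *Lrp2* sh2 it was at 5.3, 5.1 and 9.3 CPM, below every ctrl sh library (log2FC −0.76 ± 0.22), with replicate 3 apart from the other two. This call was lost without any 1 of the ctrl sh libraries or without *Lrp2* sh2 replicate 1 or 2, where the log2FC ranged from −1.10 to −0.61 over the libraries left out.

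The first comparison, nSREBP2 versus GFP, asked what the active factor does to the RPE. With a call meaning an edgeR adjusted *P* under 0.05 over all genes, 1 of the 10 genes was called higher (*Srxn1*), beside 12.6% of all genes tested, and 2 were called lower (*Nqo1* and *Gclc*), beside 8.47%. The median log2FC of the 10 was 0.08, and that of all genes −0.02. With all 18 libraries in one fit and sex as a term, all 3 kept their calls, with log2FCs of 0.54 for *Srxn1*, −1.16 for *Nqo1* and −0.54 for *Gclc*.

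The comparison of *Lrp2* sh1 with ctrl sh asked what loss of megalin does, and 7 of the 10 genes were called higher (*Srxn1*, *Gclm*, *Nqo1*, *Txnrd1*, *Nfe2l2*, *Gsr* and *Keap1*), beside 3.06% of all genes tested. None was called lower, beside 2.28% of all genes. At an unadjusted *P* under 0.05, edgeR gave 9 higher and 0 lower, beside 10.04% and 9.65% of all genes, and DESeq2 called 6 higher and 0 lower, beside 3.64% and 2.72%. The median log2FC was 0.32, against −0.01 for all genes. Only *Srxn1* and *Gclm* kept their calls when any 1 library was left out. The count of called genes was 2 without ctrl sh replicate 2, *Lrp2* sh1 replicate 1 or *Lrp2* sh1 replicate 3, and 3 without ctrl sh replicate 3 or *Lrp2* sh1 replicate 2, while no log2FC of a called gene changed its sign. With all 18 libraries in one fit, with or without sex as a term, *Nqo1* and *Keap1* were not called, and DESeq2 did not call *Keap1* either.

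In the comparison of *Lrp2* sh2 with ctrl sh, which used the same ctrl sh libraries, 5 of the 10 genes were called lower (*Nqo1*, *Srxn1*, *Osgin1*, *Keap1* and *Gclm*), beside 9.48% of all genes tested, and 1 was called higher (*Hmox1*), beside 8.59%. The median log2FC was −0.32, against 0.01 for all genes. All 6 kept their calls when sex was a term of the fit, and *Gclc* was called with neither hairpin. Besides the RPE and macrophage markers given above, rod markers were at 129 to 536 CPM with *Lrp2* sh2 against 49.0 to 75.8 CPM with ctrl sh, with 13 of 16 called higher. Endothelial markers were at 1203 to 1261 against 1839 to 1930 CPM, with 7 of 8 called lower, and blood markers at 352 to 442 against 642 to 812 CPM, with 6 of 6 called lower. The part of these cells in the differences was not tested.

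The direct comparison of *Lrp2* sh2 with *Lrp2* sh1 gave the difference between hairpins meant to lower the same target, *Lrp2*, whose own ranges overlapped. Of the 10 genes, 6 were called lower (*Nqo1*, *Srxn1*, *Gclm*, *Osgin1*, *Keap1* and *Gsr*), beside 12.3% of all genes tested, and 1 was called higher (*Hmox1*), beside 10.2%. *Nqo1* was 6.39-fold lower (log2FC −2.68 ± 0.10), *Srxn1* 3.60-fold lower (log2FC −1.85 ± 0.07), *Gclm* 2.19-fold lower (log2FC −1.13 ± 0.07) and *Osgin1* 2.08-fold lower (log2FC −1.06 ± 0.22). The *Hmox1* call (log2FC 0.33 ± 0.07) was lost without *Lrp2* sh1 replicate 2 and with all 18 libraries in one fit, where it was kept with sex as a term, at log2FCs of 0.30 to 0.44 over the alternatives. The groups did not overlap for any of the 10 genes, with 9 lower, beside 21.5% of all genes tested, and 1 higher, beside 17.5%. Macrophage and rod markers were higher with *Lrp2* sh2 than with *Lrp2* sh1, at 499 to 628 against 392 to 422 CPM and at 129 to 536 against 41.1 to 84.1 CPM, and RPE and endothelial markers were lower, at 729 to 1188 against 1605 to 2469 CPM and at 1203 to 1261 against 1695 to 1816 CPM. Their part in the differences was not tested.

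The control vectors were set against uninjected libraries, which both comparisons share. With GFP, 1 gene was called higher (*Hmox1*), beside 0.662% of all genes tested, and none lower, beside 1.82%. The unadjusted edgeR count was 2 higher, beside 8.39% of all genes, and 1 lower, beside 11.4%, and DESeq2 called 1 higher and 1 lower, beside 1.41% and 3.32%. The *Hmox1* call was lost without GFP replicate 1 or 2 or uninjected replicate 2 or 3, where its log2FC ranged from 0.69 to 0.90 over the libraries left out. With ctrl sh, 3 genes were called higher (*Srxn1*, *Gsr* and *Keap1*), beside 3.13% of all genes, and none lower, beside 3.37%. At an unadjusted *P* this was 6 higher and 0 lower by edgeR, beside 12.2% and 13.4% of all genes, and DESeq2 called 3 and 0, beside 4.04% and 3.65%. *Keap1* lost its call without uninjected replicate 3 or ctrl sh replicate 2 or 3, where its log2FC ranged from 0.57 to 0.81 over the libraries left out. The median log2FC of the 10 genes was 0.16 for GFP and 0.38 for ctrl sh, beside medians of all genes that rounded to 0.00.

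**Figure D3:**
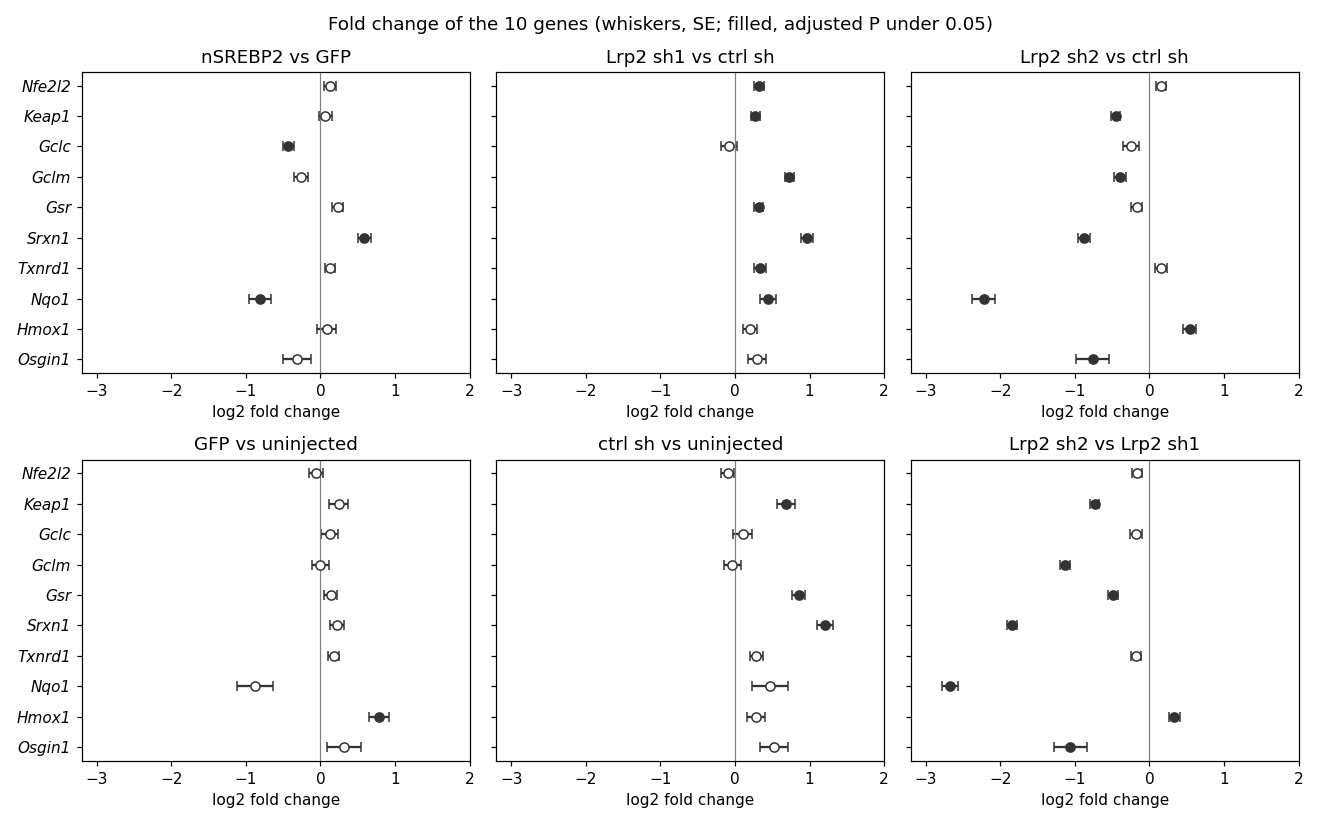
Log2 fold change of the 10 genes (horizontal axes) in 6 comparisons, 1 per panel, with whiskers for the SE. Filled points are genes called at an adjusted *P* under 0.05, of which there are 7 to the right of 0 for *Lrp2* sh1 versus ctrl sh, and 5 to the left and 1 to the right for *Lrp2* sh2 versus ctrl sh.

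A wider list of 43 other known NRF2 target genes, named from pathway knowledge with earlier results of these data known, was read in the same fits, and 40 of them passed the filter on low counts. *Gpx2*, *Gstm3* and *Ugt1a6a* did not. The shares of all genes called in each comparison, given above for the 10 genes, stand beside the counts of this and the following lists too. Genes counted as rising, falling, higher or lower in these lists are those called, unless another limit is named. With *Lrp2* sh1 versus ctrl sh, 10 rose and 3 fell, with a median log2FC of 0.05. The largest rises were of *Gsta3*, a glutathione transferase (3.91-fold, log2FC 1.97 ± 0.22, edgeR adjusted *P* = 0.00137), *Blvrb*, a biliverdin reductase (2.56-fold, log2FC 1.36 ± 0.11, adjusted *P* = 0.000286), and *Ptgr1*, a prostaglandin reductase (log2FC 0.80 ± 0.13, adjusted *P* = 0.00922). *Blvrb* was at 31.0, 30.2 and 30.3 CPM with *Lrp2* sh1 and between 8.25 and 14.5 CPM in every library of the other groups, and these 3 genes kept their calls whichever library was left out, although *Ptgr1* lost its call with all 18 libraries in one fit without sex. The falls were of *Gsta4* (log2FC −0.49 ± 0.10, adjusted *P* = 0.0246), the nucleotide and conjugate exporter *Abcc4* (log2FC −0.36 ± 0.08, adjusted *P* = 0.0312) and the ferritin heavy chain *Fth1* (log2FC −0.34 ± 0.06, adjusted *P* = 0.0159). Each fall lost its call without *Lrp2* sh1 replicate 1 or 2 or ctrl sh replicate 3, and those of *Gsta4* and *Fth1* also without ctrl sh replicate 2, and all 3 with all 18 libraries in one fit, at log2FCs of −0.59 to −0.39 for *Gsta4*, −0.43 to −0.31 for *Abcc4* and −0.38 to −0.31 for *Fth1* over the libraries left out. The whole count of 13 was 3 without *Lrp2* sh1 replicate 1, 4 without replicate 2, 6 without replicate 3, and 7 without ctrl sh replicate 2 or 3. Transferases of the *Gsta* and *Gstm* families have near-identical copies, so their counts are uncertain.

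With *Lrp2* sh2 versus ctrl sh, 3 of the 40 rose and 11 fell, with a median log2FC of −0.13. The largest falls were of the membrane glutathione transferase *Mgst1* (log2FC −0.81 ± 0.14, adjusted *P* = 0.00377), the heme transporter *Slc48a1* (log2FC −0.71 ± 0.10, adjusted *P* = 0.00161) and *Abcc4* (log2FC −0.68 ± 0.10, adjusted *P* = 0.00178). The rises were of *Ptgr1* (2.15-fold, log2FC 1.11 ± 0.12, adjusted *P* = 0.000358), the aldo-keto reductase *Akr1b8* (log2FC 0.73 ± 0.19, adjusted *P* = 0.0253) and the conjugate exporter *Abcc3* (log2FC 0.46 ± 0.14, adjusted *P* = 0.0450). *Ptgr1* was thus higher with both hairpins, at 13.1 to 17.9 CPM for *Lrp2* sh1 and 17.1 to 20.2 CPM for *Lrp2* sh2 against 8.49 to 9.21 CPM for ctrl sh. DESeq2 called neither *Akr1b8* nor *Abcc3*, nor did the fit with sex as a term, and both lost their edgeR calls without any 1 of the ctrl sh libraries or without *Lrp2* sh2 replicate 1 or 2, at log2FCs of 0.63 to 0.81 and 0.34 to 0.51 over the libraries left out. The count of 14 was 9 without *Lrp2* sh2 replicate 2.

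Between the hairpins themselves, 17 of the 40 were lower and 3 were higher with *Lrp2* sh2 than with *Lrp2* sh1, with a median log2FC of −0.25. *Gsta3* was 7.35-fold lower (log2FC −2.88 ± 0.17, adjusted *P* = 3.57e-06), *Blvrb* 3.10-fold lower (log2FC −1.63 ± 0.11, adjusted *P* = 1.01e-05) and *Mgst1* 2.39-fold lower (log2FC −1.26 ± 0.11, adjusted *P* = 5.57e-05). Of the NADPH-supplying enzymes, 4 of 6 were lower and none was higher. *Slc7a11*, the cystine importer that feeds glutathione synthesis, went the other way and was 3.75-fold higher with *Lrp2* sh2 (log2FC 1.91 ± 0.21, adjusted *P* = 0.000196). It was at 6.83, 3.55 and 5.62 CPM with *Lrp2* sh1 and 21.6, 16.6 and 21.5 CPM with *Lrp2* sh2, but its ctrl sh libraries spread over 26.4, 10.4 and 4.31 CPM, across both hairpins. Its call was lost with all 18 libraries in one fit, with or without sex as a term. *Akr1b8* (log2FC 0.84 ± 0.23, adjusted *P* = 0.0250) and *Gsta4* (log2FC 0.58 ± 0.16, adjusted *P* = 0.0270) were also higher. *Akr1b8* lost its call without *Lrp2* sh1 replicate 2 or 3 or *Lrp2* sh2 replicate 1 or 2, and *Gsta4* without *Lrp2* sh1 replicate 1 or 2, at log2FCs of 0.68 to 1.04 and 0.36 to 0.70 over the libraries left out. Neither was called with sex as a term, and *Gsta4* was called neither by DESeq2 nor with all 18 libraries in one fit, at log2FCs down to 0.25.

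With nSREBP2 versus GFP, 9 of the 40 rose and 5 fell, with a median log2FC of 0.10. The largest rises were of *Abcc3* (2.35-fold, log2FC 1.23 ± 0.16, adjusted *P* = 0.000536), *Gsta2* (log2FC 0.99 ± 0.20, adjusted *P* = 0.00604) and *Akr1b8* (log2FC 0.98 ± 0.20, adjusted *P* = 0.00756). The largest falls were of the peroxiredoxin *Prdx6* (log2FC −0.75 ± 0.13, adjusted *P* = 0.00299), the epoxide hydrolase *Ephx1* (log2FC −0.47 ± 0.09, adjusted *P* = 0.00658) and *Abcc4* (log2FC −0.40 ± 0.07, adjusted *P* = 0.00345). Among enzymes that supply NADPH, 3 of 6 rose and none fell, namely *Pgd*, *Idh1* and *G6pdx*. The paper's introduction states that nSREBP2 itself activates genes of enzymes that generate NADPH. Whether NRF2 or nSREBP2 had a part in these rises was not tested. *G6pdx* (log2FC 0.29 ± 0.09, edgeR adjusted *P* = 0.0493) lies on the X chromosome, and sex and treatment cannot be told apart here. Of its exon bases, 418 are shared with a gene on the opposite strand. When sex was included and all libraries were fitted, 7 targets were called in place of 14, and *Gsta2* and *Akr1b8* were not called.

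For GFP versus uninjected, edgeR called 0 of the 40 in either direction, with 6 higher and 5 lower at an unadjusted *P* under 0.05, and DESeq2 called 4 higher and 3 lower. For ctrl sh versus uninjected, 3 rose and 1 fell. These were *Mgst1* (log2FC 1.053 ± 0.22, adjusted *P* = 0.0309), *Ephx1* (log2FC 0.64 ± 0.13, adjusted *P* = 0.0254), the pentose phosphate enzyme *Pgd* (log2FC 0.49 ± 0.08, adjusted *P* = 0.0129) and, lower, *Gstm1* (log2FC −0.50 ± 0.10, adjusted *P* = 0.0283). None was called without ctrl sh replicate 2 or 3, and 2 were called without uninjected replicate 2. Over the libraries left out, the log2FC ranged from 0.82 to 1.25 for *Mgst1*, 0.55 to 0.79 for *Ephx1*, 0.44 to 0.52 for *Pgd* and −0.60 to −0.43 for *Gstm1*.

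**Figure D4:**
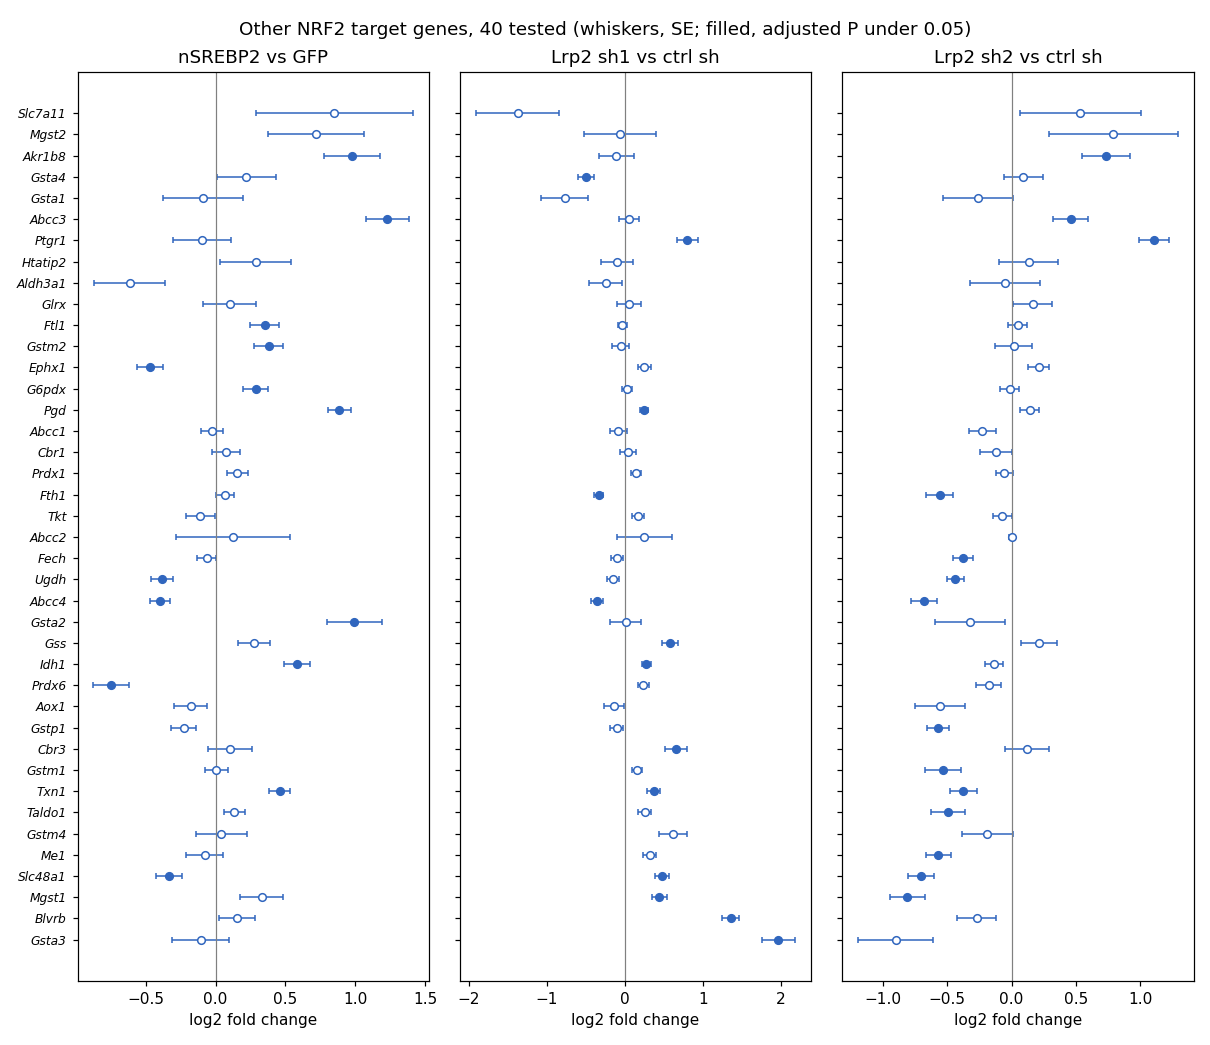
Log2 fold change of the 40 other NRF2 target genes (rows, in the same order in each panel) for nSREBP2 against GFP and for each *Lrp2* hairpin against ctrl sh (horizontal axes, on different scales), with whiskers for the SE and filled points for an adjusted *P* under 0.05. *Blvrb* and *Gsta3*, at the bottom, have the largest rises with *Lrp2* sh1, at log2FCs of 1.36 and 1.97.

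A list of 13 regulators and partners of KEAP1 and NRF2, of which 12 were analysed, was read in the same way. With *Lrp2* sh1 versus ctrl sh, only *Sqstm1* was called, higher, and it encodes p62, which binds KEAP1 and is itself an NRF2 target. *Sqstm1* was at 525.3, 495.8 and 521.8 CPM with *Lrp2* sh1 against 340.5, 359.0 and 360.7 CPM with ctrl sh (log2FC 0.54 ± 0.06, adjusted *P* = 0.00131). With *Lrp2* sh2 versus ctrl sh, the related factor *Nfe2l1* (log2FC −0.46 ± 0.06, adjusted *P* = 0.000907) and the small MAF gene *Mafg* (log2FC −0.30 ± 0.06, adjusted *P* = 0.00898) fell and none rose. Between the hairpins, *Sqstm1* (log2FC −0.50 ± 0.06, adjusted *P* = 0.000250), *Nfe2l1* (log2FC −0.50 ± 0.06, adjusted *P* = 0.000219) and *Mafg* (log2FC −0.38 ± 0.06, adjusted *P* = 0.00117) were lower with *Lrp2* sh2.

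With nSREBP2 versus GFP, 4 regulators rose and 1 fell. *Maff* (log2FC 0.85 ± 0.20, adjusted *P* = 0.0151), *Bach2* (log2FC 0.48 ± 0.10, adjusted *P* = 0.00886) and *Bach1* (log2FC 0.38 ± 0.09, adjusted *P* = 0.0139) had the largest rises, and BACH1 and BACH2 are repressors that compete for the same element. *Nfe2l1* fell (log2FC −0.26 ± 0.07, adjusted *P* = 0.0248). *Maff* lost its call without GFP replicate 2 or nSREBP2 replicate 1 or 2, *Bach1* without GFP replicate 1 or 2 or nSREBP2 replicate 1, and *Nfe2l1* without GFP replicate 2 or nSREBP2 replicate 2 or 3, at log2FCs of 0.65 to 1.17, 0.31 to 0.48 and −0.32 to −0.23 over the libraries left out. None of these 3 was called with sex as a term of the fit. Against uninjected libraries, *Mafk* was lower with GFP (log2FC −1.06 ± 0.19, adjusted *P* = 0.0237) and with ctrl sh (log2FC −1.050 ± 0.12, adjusted *P* = 0.00580), and *Maff* was lower with ctrl sh (log2FC −1.09 ± 0.19, adjusted *P* = 0.0171). The *Mafk* call for GFP was lost without GFP replicate 1 or 2 or uninjected replicate 2 or 3 (log2FC −1.31 to −0.93), and that of *Maff* without ctrl sh replicate 2 (log2FC −1.25 to −0.91 over the libraries left out).

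A further 22 antioxidant enzymes that are not mainly set by NRF2 were read for contrast. With *Lrp2* sh1 versus ctrl sh, 2 rose and none fell, namely *Gpx4*, the peroxidase of membrane lipid peroxides (log2FC 0.76 ± 0.07, adjusted *P* = 0.000687), and mitochondrial *Prdx3* (log2FC 0.46 ± 0.09, adjusted *P* = 0.0174). *Prdx3* lost its call without ctrl sh replicate 3 or *Lrp2* sh1 replicate 1 or 3, at log2FCs of 0.41 to 0.52 over the libraries left out. With *Lrp2* sh2 versus ctrl sh, 5 fell and 1 rose. *Sod1*, the cytosolic superoxide dismutase (log2FC −0.94 ± 0.09, adjusted *P* = 0.000198), catalase *Cat* (log2FC −0.53 ± 0.11, adjusted *P* = 0.00841) and *Gpx4* (log2FC −0.50 ± 0.09, adjusted *P* = 0.00487) fell most, and *Glrx3* rose (log2FC 0.55 ± 0.09, adjusted *P* = 0.00404). Between the hairpins, 6 were lower with *Lrp2* sh2 and 1 was higher, with *Gpx4* 2.41-fold lower (log2FC −1.27 ± 0.08, adjusted *P* = 4.42e-06), *Sod1* 2.21-fold lower (log2FC −1.15 ± 0.08, adjusted *P* = 1.25e-05) and *Cat* 1.44-fold lower (log2FC −0.53 ± 0.09, adjusted *P* = 0.00187). The higher one was *Glrx3* (log2FC 0.26 ± 0.08, adjusted *P* = 0.0452), a call lost without *Lrp2* sh1 replicate 2 or 3 or any 1 *Lrp2* sh2 library (log2FC 0.19 to 0.36 over the libraries left out) and made neither by DESeq2 nor with all 18 libraries in one fit.

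With nSREBP2 versus GFP, 3 of the 22 rose, beside 12.6% of all genes tested, and 2 fell, beside 8.47%. The rises were of *Gpx3*, the secreted glutathione peroxidase (log2FC 0.99 ± 0.11, adjusted *P* = 0.000192), and of *Gpx7* (log2FC 0.63 ± 0.11, adjusted *P* = 0.00261) and *Gpx8* (log2FC 0.35 ± 0.08, adjusted *P* = 0.0136), both of the endoplasmic reticulum. The falls were of *Glrx5* (log2FC −0.38 ± 0.10, adjusted *P* = 0.0204) and the mitochondrial superoxide dismutase *Sod2* (log2FC −0.36 ± 0.07, adjusted *P* = 0.00433). *Gpx8* lost its call without GFP replicate 1 or nSREBP2 replicate 1, and *Glrx5* without GFP replicate 1 or 2 or nSREBP2 replicate 1 or 2, at log2FCs of 0.30 to 0.39 and −0.43 to −0.35 over the libraries left out. Neither was called with sex as a term, and *Glrx5* was not called by DESeq2. Beside these, the 6 fibroblast markers summed to 71390 to 85260 CPM with nSREBP2 against 34250 to 43760 CPM with GFP, with all 6 called higher, and 11 of 12 macrophage markers were called higher. Rod markers were at 343 to 490 against 52.4 to 374 CPM, ranges that overlapped, with 5 of 16 called higher. Endothelial markers were at 1303 to 1356 against 1678 to 2161 CPM, with 6 of 8 called lower. The part of these cells in the differences was not tested.

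Against uninjected libraries, *Gpx7* was the one enzyme of the 22 called with GFP, higher (log2FC 0.63 ± 0.13, adjusted *P* = 0.0421), and it lost its call without any 1 of the 6 libraries (log2FC 0.51 to 0.70). With ctrl sh, 5 rose and 1 fell. The largest rises were of *Prdx5* (log2FC 0.92 ± 0.11, adjusted *P* = 0.00580), *Sod1* (log2FC 0.71 ± 0.14, adjusted *P* = 0.0263) and *Gpx7* (log2FC 0.65 ± 0.10, adjusted *P* = 0.0134), and *Gpx3* fell (log2FC −0.71 ± 0.12, adjusted *P* = 0.0171). *Sod1*, *Gpx7* and *Gpx3* lost their calls without ctrl sh replicate 2 or 3, and *Gpx3* also without uninjected replicate 3, at log2FCs of 0.56 to 0.84, 0.63 to 0.69 and −0.78 to −0.62 over the libraries left out.

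Among themselves, the 10 genes varied together to unequal degrees over the 18 libraries. As a description, Pearson's *r* of log2 CPM was highest for *Keap1* with *Srxn1* (0.927), *Keap1* with *Gsr* (0.884) and *Gsr* with *Srxn1* (0.877), and lowest for *Nqo1* with *Hmox1* (−0.627). *Nfe2l2* with *Nqo1* gave 0.164, and *Gclc* with *Gclm* 0.417. These libraries share groups, depth and cell content. Of 15676 genes ranked, those whose level was most like the mean scaled level of the 8 genes other than *Nfe2l2* and *Keap1* were the lipase *Abhd4* (*r* = 0.975), *Emc7* of the membrane protein insertion complex (*r* = 0.967), the proteasome ubiquitin receptors *Psmd4* (*r* = 0.962) and *Adrm1* (*r* = 0.954), and the mitochondrial channel *Vdac3* (*r* = 0.954), over 18 libraries. *Abhd4* had a mean of 171 CPM with *Lrp2* sh1, 126 with ctrl sh, 97.0 with GFP, 90.2 with nSREBP2, 90.1 with *Lrp2* sh2 and 77.3 in uninjected libraries.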

How the data were processed

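RNA-seq of RPE was analysed in 18 libraries, 3 for each of 6 groups taken from the sample labels, where the control hairpin is named for LacZ. The authors depleted ribosomal RNA, made directional libraries, aligned reads to GRCm38 and obtained gene counts with STAR. What they deposited are raw whole-number counts. The gene annotation and the strand setting of the counting are not given in the sources used here. Positions and exon lengths come from GENCODE M21 for GRCm38, in which 49035 of 52636 gene IDs were found, and promoter windows from RefSeq (GRCm38.p6). Windows on chromosome 18 were left out.

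A comparison used the 6 libraries concerned and the quasi-likelihood test of edgeR 4.0.16 (R 4.3.3) after filterByExpr and TMM normalization, with Benjamini-Hochberg adjustment over all genes tested. The study itself used DESeq2 with an absolute log2FC above 1 as an added limit. The SE is the log2FC divided by the root of F. CPM values use TMM factors computed on the 18 libraries together. Depth was 8921885 to 13696934 counts, and a count of 0 allows a level of up to 3 counts, or 0.216 to 0.327 CPM. Replicates differed by more than sampling noise (chi-square per degree of freedom 3.57 to 24.3).

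The 10 genes and the lists were chosen with earlier results of these data known. Named from the other lists were, in each comparison, up to 3 called genes that rose most and up to 3 that fell most, and the 5 genes most like the members. *Lrp2*, *Srebf2*, *Rpe65*, *Lrat* and the genes that overlap members were named besides. Alternatives were DESeq2 1.42.0, its size factors in edgeR, an absent or stricter filter (10 counts per library), a joint fit of the 18 libraries with and without sex (from Y-linked counts), a replicate block, an absolute log2FC above 1, and leaving out each library.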

Additional observations from a re-analysis of the deposited data

Results flagged for a closer look

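A few genes of the wider lists were called in opposite directions by the *Lrp2* hairpins, and the difference between the hairpins was itself called by edgeR in the comparison of *Lrp2* sh2 with *Lrp2* sh1. *Mgst1* differed by a log2FC of −1.26 (adjusted *P* = 5.57e-05), from 0.44 for *Lrp2* sh1 and −0.81 for *Lrp2* sh2 versus ctrl sh. The thioredoxin gene *Txn1* differed by −0.75 (adjusted *P* = 0.000389), from 0.37 and −0.38. *Slc48a1* differed by −1.19 (adjusted *P* = 2.33e-06), from 0.48 and −0.71. *Gpx4*, of the antioxidant enzymes not mainly set by NRF2, differed by −1.27 (adjusted *P* = 4.42e-06), from 0.76 and −0.50. The effects of both hairpins are measured against the same ctrl sh libraries. The genes were picked by these calls, so their *P*-values add no support. Without *Lrp2* sh1 replicate 1, 3 other targets were called for *Lrp2* sh1 versus ctrl sh, namely *Gsta3*, *Blvrb* and *Ptgr1*. *Mgst1*, *Txn1* and *Slc48a1* thus lost that call, while the *Gpx4* calls were kept in every alternative other than the limit on fold.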

How the results depend on the processing

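With 3 mice per group, small differences of genes that spread between mice are not detectable at this depth. Of 27 values of the 10 genes that were called, 18 kept their call in every alternative other than the limit on fold and 9 did not, of 33 that were not called, 4 were called in some alternative, and no call changed sign. Of 61 calls named from the other lists, 33 kept their call in every alternative other than that limit. The causes were not tested, except that an added limit on fold removes calls by construction. Counts fell without some libraries and rose without others. Among these settings, the share of all genes called was computed only for the main fit and for DESeq2. For the other alternatives, here and above, a change in a count cannot be set against that of all genes. For *Lrp2* sh1 versus ctrl sh, 15 other targets were called without ctrl sh replicate 1, in place of 13.

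For the 10 genes, counts with an absolute log2FC above 1 were 0 in place of 3 for nSREBP2 versus GFP, 0 in place of 7 for *Lrp2* sh1 versus ctrl sh, 1 in place of 6 for *Lrp2* sh2 versus ctrl sh, 0 in place of 1 for GFP versus uninjected, 1 in place of 3 for ctrl sh versus uninjected and 4 in place of 7 for *Lrp2* sh2 versus *Lrp2* sh1. For GFP versus uninjected, DESeq2, no filter on low counts and all libraries in one fit, with or without sex, each gave 2. Leaving out 1 library gave 2 to 6 for *Lrp2* sh1 versus ctrl sh and 0 to 2 for GFP versus uninjected.

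For the other targets, counts with an absolute log2FC above 1 were 1 in place of 14 for nSREBP2, 2 in place of 13 for *Lrp2* sh1, 1 in place of 14 for *Lrp2* sh2, 1 in place of 4 for ctrl sh and 5 in place of 20 for *Lrp2* sh2 versus *Lrp2* sh1. All libraries in one fit gave 5 for *Lrp2* sh1, 8 for GFP versus uninjected and 9 for ctrl sh versus uninjected, and with sex as a term 7 for nSREBP2, 6 for *Lrp2* sh1, 7 for GFP and 9 for ctrl sh. For GFP versus uninjected, with 0 calls, DESeq2 gave 7, no filter 7, and at least 10 counts in every library 1. For ctrl sh, no filter gave 7. Leaving out 1 library gave 3 to 15 for *Lrp2* sh1, 9 to 14 for *Lrp2* sh2, 0 to 5 for GFP versus uninjected (5 without uninjected replicate 1) and 0 to 4 for ctrl sh versus uninjected.

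The replicate block gave 4 in place of 7 of the 10 genes for *Lrp2* sh1 versus ctrl sh, and 8 in place of 13 other targets there and 2 in place of 4 for ctrl sh versus uninjected. For libraries with the same number, the correlation of deviations from the group means ran from −0.444 to 0.386, and no comparison had every pair above 0.1. For *Lrp2* sh2 versus *Lrp2* sh1 it was −0.0173, 0.378 and 0.386 for replicates 1, 2 and 3. With so few libraries per group, these values cannot show whether libraries with the same number were handled together.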

Other observations

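Since *Psmd4* and *Adrm1* were among the genes most like the NRF2 targets, 35 genes named for the 26S proteasome were read after their values were seen, as a description without a test. They were taken by name, so not all need be subunits. NRF2 and the related factor NRF1, encoded by *Nfe2l1*, are both known to regulate proteasome genes. With ctrl sh versus uninjected, the difference of the group means of log2 CPM was positive for 35 of 35, with a median of 0.67. With GFP versus uninjected it was positive for 35 of 35 with a median of 0.19. With *Lrp2* sh1 versus ctrl sh it was positive for 35 of 35, with a median of 0.25 and a range of 0.02 to 0.52. With *Lrp2* sh2 versus ctrl sh it was negative for 33 of 35, with a median of −0.39. *Lrp2* sh2 versus *Lrp2* sh1 gave 34 negative of 35, with a median of −0.64, and nSREBP2 versus GFP gave 19 positive and 16 negative, with a median of 0.01. The comparisons share ctrl sh and uninjected libraries. Among the 35 are *Psmd4* and *Adrm1*, whose levels led to the choice, and the share of all genes with each sign was not computed. The median log2FC of all genes tested ran from −0.02 for nSREBP2 versus GFP to 0.01 for *Lrp2* sh2 versus *Lrp2* sh1. Whether NRF2 or NRF1 had a part was not tested.

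*Psmd4* had a mean of 76.6 CPM with *Lrp2* sh1, 60.9 with ctrl sh, 44.9 with GFP, 43.9 with *Lrp2* sh2, 39.8 with nSREBP2 and 39.3 in uninjected libraries. The element TGACNNNGC was in 25.5% of the promoter windows used here for the 43 other NRF2 targets, in 10 of 36 genes with a window, beside 12.4% of all windows.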
